A study of Mus musculus with 6 samples.

Results

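Aminoacyl tRNA synthetases are the enzymes that load each amino acid onto its tRNA before it can enter a protein. The 37 mouse synthetase genes described here were taken by symbol from the 26264 genes of the deposited expression table: an amino acid letter code followed by ars, with nothing, 1 or 2 after it, together with Farsa, Farsb, Eprs and Tarsl2. No expression value entered that choice. Lars2, the mitochondrial leucine enzyme, was left out because it overlaps ribosomal RNA sequence, and it ranged from 203 to 5547 TPM (a level scaled for gene length and library size) over the libraries. The values come from brains of Gfap-Cre; RiboTag mice, in which Cre switches on a tagged ribosomal protein so that mRNA on the ribosomes of those cells can be pulled down. The Gfap promoter drives Cre in astrocytes, and per the labels some neurons and oligodendrocytes were captured as well. All mice carried both alleles, and libraries are named below by their labels. A group of 3 libraries came from mice on control diet and a group of 3 from mice fed PLX5622, an inhibitor of the microglial growth factor receptor Csf1r, at 1200 ppm, each diet lasting 1 month. The labels name the libraries biological replicates and give neither the age of the mice nor whether animals were pooled. The series asked how the drug affects cholesterol metabolism in these cells, and synthetase genes were not its subject.

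Every compartment that translates needs a full set of charged tRNAs, so most amino acids have a nuclear gene for a cytosolic synthetase and another, written with the suffix 2, for an enzyme imported into mitochondria. Glycine and lysine are exceptions: Gars and Kars each encode enzymes for both places. The enzymes fall into classes I and II, which have unrelated catalytic folds. In animals several cytosolic enzymes are held together with non-enzymatic scaffold proteins in the multi-synthetase complex. Inherited variants of human synthetase genes affect the nervous system in many cases, among them DARS, RARS, AARS2 and EARS2 in white matter disease and GARS, YARS and AARS in peripheral neuropathy. Of the 37 genes, 19 serve the cytosol, 16 serve mitochondria and 2 serve both.

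The libraries differed in ways to be kept in mind for the results below. Of the marker lists, 8 astrocyte genes summed to between 22687 and 32178 TPM under control diet and between 36625 and 40816 TPM under PLX5622, and 8 neuron genes to 1342 to 1557 and 847 to 1258 TPM. The 7 oligodendrocyte genes summed to 3273 to 4257 and 2909 to 3911 TPM, 4 endothelial genes to 3.74 to 4.73 and 2.62 to 3.42 TPM, and 4 choroid plexus genes to 41.4 to 314 and 9.80 to 244 TPM. Such sums do not speak for each gene, and of the 4 endothelial genes 1 averaged 1 TPM or more. Of the astrocyte genes, the labelled groups overlapped for Slc1a2, Gfap and Aldh1l1. They did not overlap for Slc1a3, Aqp4, Gja1, Aldoc and Glul. Against the neuron sum, Map2 ran from 48.4 to 72.6 TPM in control and from 67.4 to 79.4 TPM in PLX5622 libraries. The pulled-down RNA pools all captured cells of a brain, so fewer cells of a type and less RNA per cell cannot be told apart. Microglial transcripts, which the drug depletes, did not sort the libraries by label: 8 microglial genes summed to 61.9, 37.7 and 4.32 TPM in control 1 to 3, and the sum in control 3 lay below those of PLX5622 1, at 9.80 TPM, and of PLX5622 3, but above the 1.62 TPM of PLX5622 2. When the log2 values of the authors' deposited table were regressed on the 6 libraries, the fit gave negative weights to control 1, control 2 and PLX5622 3 and positive weights to the others, so that table does not follow the labelled grouping and its values are given apart. Divided as in those weights, the microglial sums did not overlap, with 1.62 to 9.80 TPM in control 3, PLX5622 1 and PLX5622 2 and 17.0 to 61.9 TPM in the others. Whether the column labels or that grouping give the diets cannot be settled from the files, and every difference by label below is a difference between columns so named. How far a gene in a library lay from its 6-library mean also tracked relative gene length, with a correlation across genes of −0.494 in control 1 and −0.467 in control 3, and of 0.198 to 0.429 in the other 4 libraries. The part of cell makeup in the differences by label was not tested.

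All 37 synthetase genes were expressed in every library, and the lowest single value was 1.76 TPM. Of these genes 10 averaged 50 TPM or more, 21 lay between 10 and 50 TPM, and 6 were under 10 TPM. Aars, which charges alanine, was highest in each of the 6 libraries, with a mean of 107 ± 9.08 TPM (SD, n = 6). In the GENCODE M21 gene models 1326 bases, 14.3% of the exon length of Aars, are shared with Exosc6 on the same strand, so reads there could belong to either gene. Ears2, which charges glutamate in mitochondria, had the lowest mean, 2.49 ± 0.345 TPM. The order of levels was nearly the same everywhere: Spearman's rho across the 37 genes lay between 0.961 and 0.995 for any pair of libraries, a description of libraries that share gene lengths and processing. Together the genes summed to between 1200 and 1371 TPM, with a mean of 1285 ± 85.3 TPM under control diet and 1336 ± 23.1 TPM under PLX5622 (SD, n = 3).

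**Figure D1:**
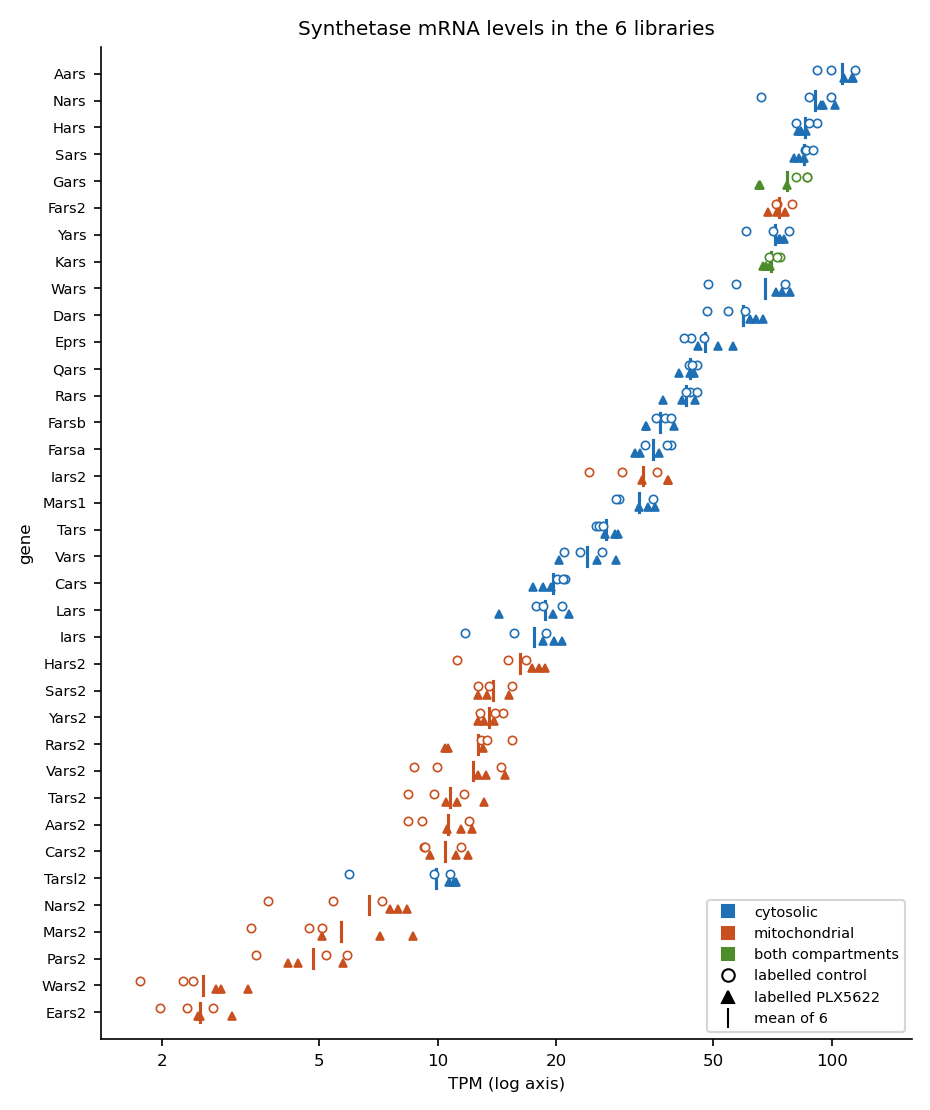
Level of each synthetase gene named in the report, in TPM on a log axis, with open circles for the 3 libraries labelled control, filled triangles for the 3 labelled PLX5622, and a bar at the mean of all 6. Blue marks cytosolic, red mitochondrial and green dual enzymes; Fars2, at a mean of 73.6 TPM, is the mitochondrial gene that stands among the highest cytosolic ones.

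Cytosolic enzymes outside the complex held the highest levels. Aars was at 91.9, 115 and 99.6 TPM in control 1 to 3 and at 113, 107 and 112 TPM in PLX5622 1 to 3. Nars, for asparagine, was at 66.3, 99.4 and 87.6 TPM under control diet and at 102, 95.3 and 94.3 TPM under PLX5622. For both genes control 1 was the lowest library and the groups overlapped. Hars, for histidine, was at 81.4, 91.6 and 87.8 TPM and at 85.9, 83.8 and 82.1 TPM, in the same order. Sars, for serine, was at 85.6, 86.0 and 89.6 TPM and at 84.9, 80.4 and 82.7 TPM. Sars varied little, with a coefficient of variation of 3.69% over the 6 libraries, and its groups did not overlap although their means, 87.1 and 82.7 TPM, were close. Yars, for tyrosine, ranged from 60.6 to 77.8 TPM and Wars, for tryptophan, from 48.5 to 78.2 TPM. The means of Nars, Hars and Sars, 90.8, 85.4 and 84.9 TPM, differed by less than the SD of Nars, 13.0 TPM, so their order is not resolved.

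The phenylalanine enzyme of the cytosol is built from alpha and beta subunits in equal number, encoded by Farsa and Farsb. Farsa was at 39.1, 33.5 and 38.1 TPM under control diet and at 32.7, 36.4 and 31.7 TPM under PLX5622. Farsb was at 37.7, 35.9 and 39.0 TPM and at 33.8, 39.7 and 33.9 TPM. Their ratio stayed between 0.916 and 1.04 in the 6 libraries, so the subunit mRNAs were near parity in each of them. Threonine has a second cytosolic enzyme, Tarsl2, at 5.96, 10.8 and 9.80 TPM under control diet and 10.7, 11.1 and 10.97 TPM under PLX5622. Tars, the main threonine enzyme, exceeded it 2.38-fold to 4.24-fold, with the highest ratio in control 1. Tarsl2 was the lowest cytosolic gene, with a mean of 9.88 TPM. The remaining cytosolic genes outside the complex were Vars, for valine, at 20.3 to 28.3 TPM and Cars, for cysteine, at 17.5 to 21.1 TPM.

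Genes of the 8 enzymes known from the multi-synthetase complex did not share a level, although their proteins are held in a single particle. Kars had a mean of 70.1 TPM, Dars (aspartate) 59.4, Eprs 47.8, Qars (glutamine) 43.8, Rars (arginine) 42.7, Mars1 (methionine) 32.5, Lars (leucine) 18.8 and Iars (isoleucine) 17.5 TPM. Eprs, a fusion that charges both glutamate and proline, was at 43.9, 47.5 and 42.1 TPM under control diet and at 51.5, 45.8 and 56.3 TPM under PLX5622. Lars and Iars, the lowest of the complex, overlapped over the libraries, at 14.3 to 21.6 and 11.8 to 20.7 TPM. Qars, at 40.9 to 45.7 TPM, and Kars, at 67.1 to 73.9 TPM, varied least of the 8, with coefficients of variation of 3.705% and 3.76%.

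Of the 2 dual genes, Gars, for glycine, was at 86.5, 86.8 and 81.4 TPM under control diet and at 76.9, 65.8 and 65.4 TPM under PLX5622. Kars, for lysine, was at 73.9, 69.5 and 72.6 TPM and at 67.1, 69.8 and 68.0 TPM. Every Gars value under the PLX5622 label lay below every control value, while the Kars groups overlapped.

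Cytosolic synthetase genes are known targets of Atf4, a transcription factor of the amino acid response, through a composite C/EBP and Atf4 element. The letters TGATGNAA were searched on either strand of the RefSeq promoter windows of build GRCm38.p6, which run from 250 bases before to 50 bases after a gene's start. They occur in 3.97% of all 32851 windows. Of the 37 genes, 27 had a window. The letters were found for 5 genes that serve the cytosol and for 0 mitochondrial genes, where 14 and 13 had a window. Hars, Lars, Nars and Hars2 were left out of this search by gene. Any window of theirs is therefore counted as one without the letters, and both counts of matches are lower bounds. A match is a description of sequence and not a site of binding. The 5 promoters are shown because they are those in which the search found the letters. Each is in the direction of its gene, ending 20 bases after the start, with the letters in capitals.
Aars, chr8:111033715-111033861, plus strand: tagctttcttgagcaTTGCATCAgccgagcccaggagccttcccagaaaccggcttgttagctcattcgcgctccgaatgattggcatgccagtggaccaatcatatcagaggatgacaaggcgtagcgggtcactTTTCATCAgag
Gars, chr6:55037941-55038020, plus strand: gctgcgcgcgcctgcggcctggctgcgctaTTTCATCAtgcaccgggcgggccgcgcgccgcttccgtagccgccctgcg
Iars, chr13:49682070-49682149, plus strand: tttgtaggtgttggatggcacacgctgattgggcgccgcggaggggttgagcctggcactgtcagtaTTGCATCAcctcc
Tars, chr15:11399639-11399718, minus strand: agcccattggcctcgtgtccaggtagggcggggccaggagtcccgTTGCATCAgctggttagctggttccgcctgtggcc
Yars, chr4:129189843-129189922, plus strand: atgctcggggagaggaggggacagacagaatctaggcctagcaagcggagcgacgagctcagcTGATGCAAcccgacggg
In Yars the letters read TGATGCAA along the gene, and in the other 4 they read in reverse. The match begins 112 bases before the start in Aars, with a second match from base 10 of the transcript. It begins 30 bases before the start in Gars and 15 before it in Tars, and at bases 8 and 4 after it in Iars and Yars. By label these 5 genes did not share a direction: log2 differences were 0.12 for Aars, −0.29 for Gars, 0.35 for Iars, 0.11 for Tars and 0.10 for Yars, none past the threshold.

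Mitochondrial enzymes had lower mRNA levels, with 14 of the 16 genes under 20 TPM and a median of 10.9 TPM, against 42.7 TPM for the cytosolic genes. Fars2 and Iars2 were the exceptions. Fars2, for phenylalanine, was at 79.3, 72.6 and 72.1 TPM under control diet and at 69.1, 76.1 and 72.6 TPM under PLX5622. It made up between 28.1% and 36.8% of the summed TPM of the 16 genes. In the GENCODE M21 gene models 501 bases of Fars2, 8.72% of its exon length, overlap exons of Nrn1. Nrn1 is a neuronal gene on the opposite strand. The overlap of Fars2 with Lyrm4 is 115 bases, or 2%. The libraries did not keep strand, so reads in shared bases cannot be told apart, and Nrn1 itself was at 64.2 to 80.2 TPM in control and 42.2 to 57.2 TPM in PLX5622 libraries. Iars2, for isoleucine, ranged from 24.2 to 38.5 TPM. Of its exons 2034 bases, or 22.9%, overlap those of Rab3gap2 on the opposite strand.

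At the low end stood Mars2, Pars2, Wars2 and Ears2. Wars2, for tryptophan, was at 1.76, 2.26 and 2.40 TPM under control diet and at 2.82, 3.29 and 2.73 TPM under PLX5622. Ears2 was at 1.98, 2.69 and 2.31 TPM and at 2.49, 3.00 and 2.47 TPM. These 2 genes, with means of 2.54 and 2.49 TPM, did not differ beyond their spread. Neither gene reached the level of Pars2 in any library. Pars2, for proline, was at 3.46, 5.90 and 5.21 TPM and at 5.75, 4.16 and 4.41 TPM. Mars2, for methionine, was at 3.36, 4.71 and 5.10 TPM and at 5.09, 7.16 and 8.66 TPM. Mars2 had the widest spread of the 37 genes, a coefficient of variation of 33.4%. Nars2, for asparagine, was at 3.72, 7.24 and 5.43 TPM and at 7.57, 7.93 and 8.35 TPM, so its groups did not overlap. Hars2, for histidine, was at 11.2, 16.8 and 15.1 TPM and at 17.4, 18.7 and 18.1 TPM, also without overlap. Hars2 shares 195 bases of exon with Hars, its neighbour on the opposite strand. Rars2, for arginine, was at 15.5, 12.9 and 13.4 TPM and at 10.6, 10.5 and 13.0 TPM. The lowest Rars2 values were those of PLX5622 1 and 2, and its groups overlapped through PLX5622 3. Sars2, Yars2, Vars2, Tars2, Aars2 and Cars2 had means between 10.4 and 13.8 TPM.

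Where an amino acid has a single gene for each compartment, the cytosolic mRNA was the more abundant in 12 of 13 pairs, and in all 6 libraries of each. The ratio was widest for tryptophan: Wars exceeded Wars2 by 27.6-fold, 33.7-fold and 23.9-fold in control 1 to 3 and by 27.8-fold, 21.9-fold and 27.3-fold in PLX5622 1 to 3. The levels were nearest for cysteine. Cars was at 21.1, 20.1 and 20.9 TPM under control diet and at 19.5, 18.5 and 17.5 TPM under PLX5622, and Cars2 was at 9.22, 11.5 and 9.28 TPM and at 9.54, 11.96 and 11.1 TPM. Isoleucine was the exception, singled out after its values were seen: Iars reached 0.481 to 0.596 of the level of Iars2. Over all genes of each compartment the cytosolic sum exceeded the mitochondrial sum 3.69-fold to 3.98-fold. Without Fars2 this ratio was 5.77 ± 0.329 in control and 5.34 ± 0.0869 in PLX5622 libraries (SD, n = 3).

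**Figure D2:**
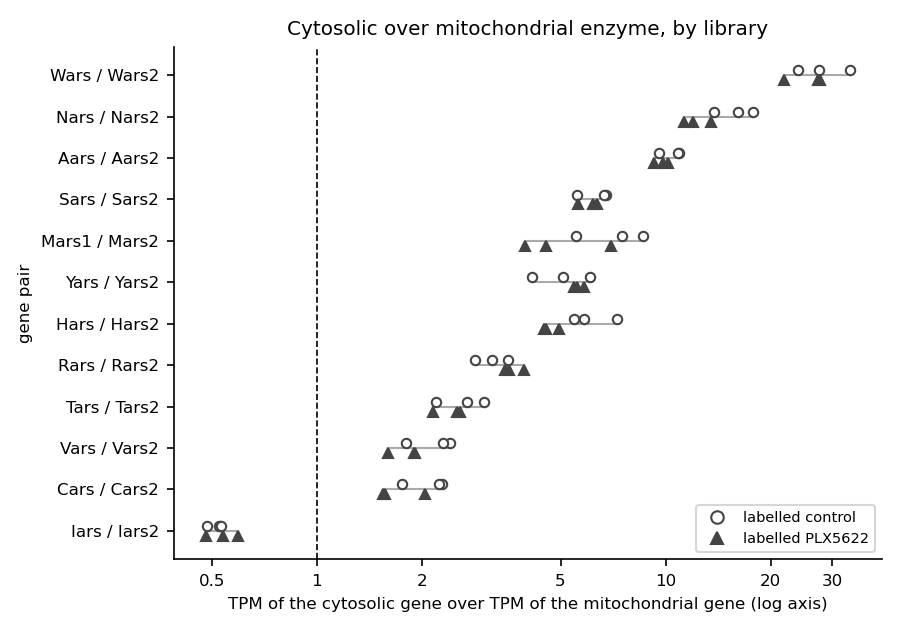
Ratio of the cytosolic to the mitochondrial gene for 12 amino acids in each library, on a log axis, with open circles for libraries labelled control, triangles for those labelled PLX5622 and grey lines from the lowest to the highest. Only the Iars and Iars2 pair lies left of the dashed line at equal levels, and the Wars pair reaches 33.7.

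The median coefficient of variation over the 6 libraries was 8.69% for cytosolic and 14.9% for mitochondrial genes, beside 16.7% over 13084 tested genes. Their levels differed as well, with medians of 42.7 TPM for cytosolic and 10.9 TPM for mitochondrial genes. The part of level in the spread was not tested. Mitochondrial synthetase genes were lowest in control 1 in 13 of 16 cases, cytosolic ones in 9 of 19, and 54.8% of all tested genes had their lowest value there. The median deviation of the mitochondrial genes from their own means, on the log2(TPM + 1) scale, was −0.30 in control 1, 0.10 in control 2 and −0.075 in control 3, and between 0.067 and 0.096 in the PLX5622 libraries. For the cytosolic genes it was −0.12, 0.10 and −0.0076 in control 1 to 3 and between 0.014 and 0.077 in the PLX5622 libraries. Both medians were lowest in control 1 and highest in control 2. Over all tested genes the median deviation in control 1 was −0.19.

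**Figure D3:**
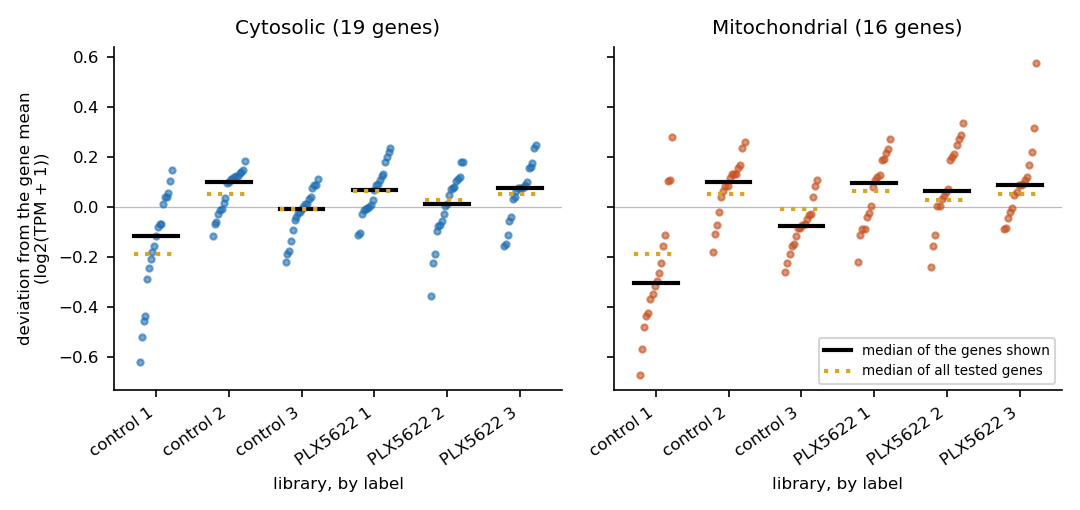
Deviation of each gene from its own mean over the 6 libraries, in log2(TPM + 1), with a point for each cytosolic (left) or mitochondrial (right) gene, black bars at their median and dotted bars at the median of all tested genes. Control 1 is lowest in both panels, with medians of −0.12 and −0.30.

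By label, no synthetase gene was called in either direction. The fit by limma on log2(TPM + 1) covered the 13084 genes that averaged 1 TPM or more and called 0% of them higher and 0% lower at an adjusted p of 0.05. All 37 synthetase genes were tested; 22 had a positive and 15 a negative difference, beside 61.1% positive over all tested genes. The median difference was 0.098 for the cytosolic genes, 0.18 for the mitochondrial genes and 0.089 over all tested genes. Before adjustment 4 synthetase genes had a limma p under 0.05, beside 22.7% of all tested genes: 3 of them were higher, beside 14.7%, and 1 was lower, beside 8.02%. The groups did not overlap for 8 genes: Dars, Tars, Hars2, Nars2 and Wars2 were higher in every PLX5622 library, beside 19.4% of tested genes, and Sars, Gars and Cars were lower, beside 9.39%.

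In the higher direction the smallest p-values belonged to 4 mitochondrial genes. Mars2 differed by 0.55 ± 0.20 (log2, SE, n = 3; limma adjusted p = 0.205), with 4.39 ± 0.913 TPM in control and 6.97 ± 1.79 TPM in PLX5622 libraries (SD). The difference was 0.51 ± 0.20 for Nars2 (limma adjusted p = 0.205), 0.33 ± 0.14 for Wars2 (limma adjusted p = 0.211) and 0.33 ± 0.16 for Hars2 (limma adjusted p = 0.241). Their 95% intervals reached up to 1.01, 0.95, 0.65 and 0.69. On the log2(TPM + 1) scale a doubling of a low gene is less than 1. A doubling was therefore not outside the intervals of Mars2 and Nars2. In the lower direction Gars came first, at −0.29 ± 0.12 (limma adjusted p = 0.206; 95% interval −0.56 to −0.026), with 84.9 ± 3.05 TPM in control and 69.3 ± 6.51 TPM in PLX5622 libraries (SD, n = 3). Rars2 differed by −0.27 ± 0.14, Cars by −0.15 ± 0.12 and Farsa by −0.13 ± 0.12. The other subunit gene, Farsb, differed by −0.071 ± 0.12, Eprs by 0.20 ± 0.13 and Tarsl2 by 0.31 ± 0.20. Without control 1 the differences of Tarsl2, Nars2 and Hars2 were 0.081, 0.30 and 0.17. For 36 of the 37 genes the 95% interval by limma lay within −1 to 1 on the log2(TPM + 1) scale, and Mars2 was the exception.

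A single library decided whether synthetase genes were called. Without control 2, limma called 7 of them higher and 0 lower: Nars2 (difference 0.70, adjusted p = 0.0104), Wars, Vars2, Iars, Iars2, Mars2 and Hars2, the last at 0.45 (adjusted p = 0.0468). In that fit 19.9% of all 13081 tested genes were called higher and 8.82% lower. The control libraries it keeps, control 1 and control 3, are those whose deviation runs against gene length. Whether gene length had a part in these calls was not tested. Without control 1 the median difference was 0.0015 for the cytosolic and 0.088 for the mitochondrial genes, and 0.026 over all tested genes.

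**Figure D4:**
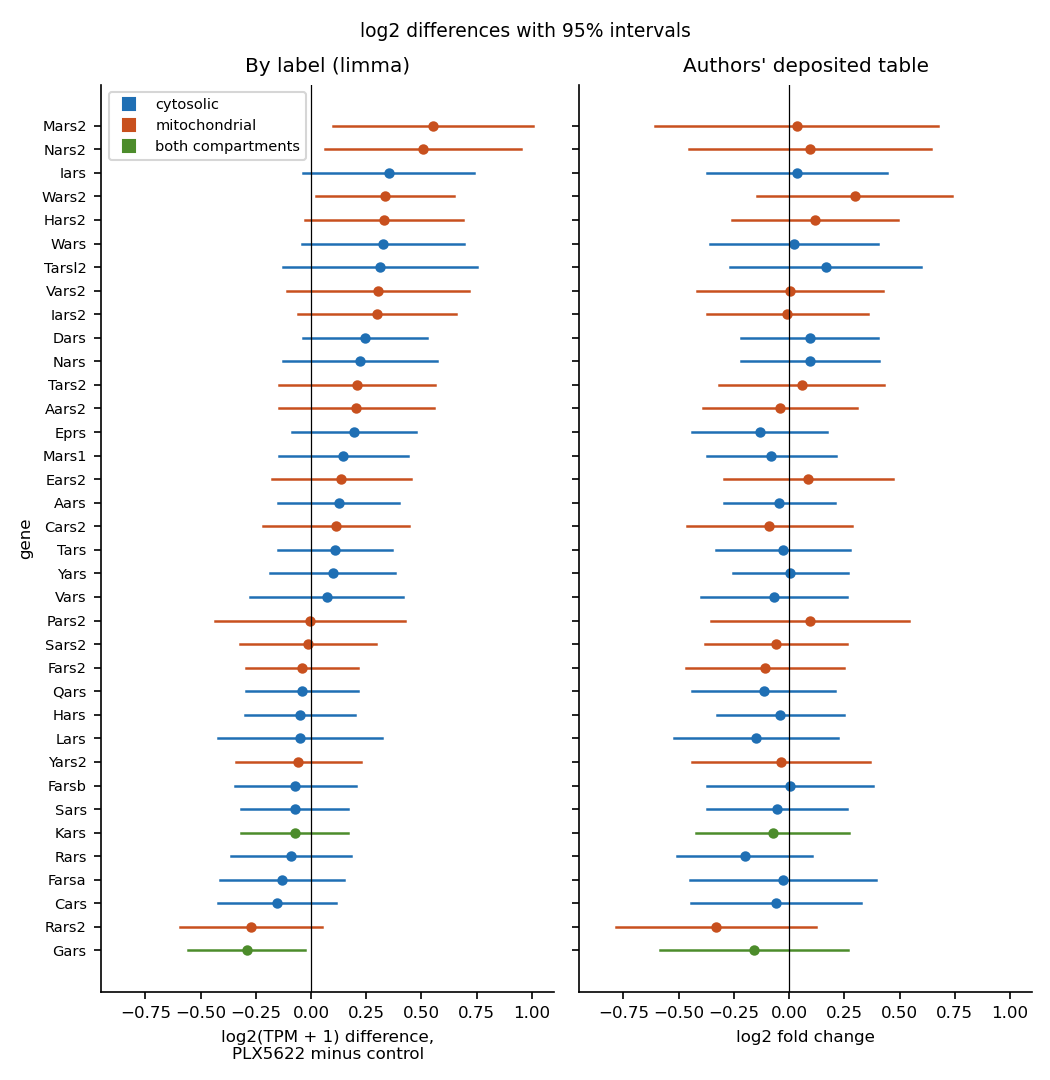
Difference for each named gene on the log2 scale, by diet label from limma (left, PLX5622 minus control in log2(TPM + 1)), and the log2 fold change of the authors' deposited table (right), whose grouping does not follow those labels, with points for estimates and lines for 95% intervals. On the left the intervals of 4 genes, Mars2, Nars2, Wars2 and Gars, leave out 0, and on the right every interval shown includes it.

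The authors' deposited table lists all 37 genes, with mean normalized counts from 235 for Wars2 to 8359 for Aars. None had an unadjusted p under 0.05 in the authors' deposited table, beside 0.847% of its 20062 genes, and none was called, beside 0.0698%. The lowest p among them in that authors' deposited table was 0.154 from its DESeq2 test, for Rars2. Its log2 fold changes in the authors' deposited table ran from −0.33 for Rars2 (SE 0.23, 95% interval −0.79 to 0.12) to 0.30 for Wars2 (SE 0.23, 95% interval −0.14 to 0.74). Gars stood at −0.16, Mars2 at 0.034, Nars2 at 0.095 and Hars2 at 0.12 in the authors' deposited table. Medians there were −0.040 for the cytosolic and 0.0072 for the mitochondrial genes in the authors' deposited table. Every 95% interval from the authors' deposited table lay within −1 to 1, so a doubling or halving is outside the interval of each synthetase gene in that comparison. Both comparisons use the same 6 libraries and are not independent of each other.

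Gene length moved with the differences by label. As a relative length, the mean normalized count in the authors' deposited table was divided by the mean TPM, which grows with the length used for the TPM. Across the 37 genes it correlated with the difference by label at a Spearman's rho of 0.522, and across all tested genes at 0.480. Median relative length was 60.6 counts per TPM for the cytosolic genes and 71.8 for the mitochondrial ones. After a loess correction of each library on this length, chosen after seeing the data, 18 of 37 differences were positive, and 15 of 37 after the planned correction on GENCODE exon length. With the correction on relative length the medians were −0.043 for cytosolic and 0.027 for mitochondrial genes.

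**Figure D5:**
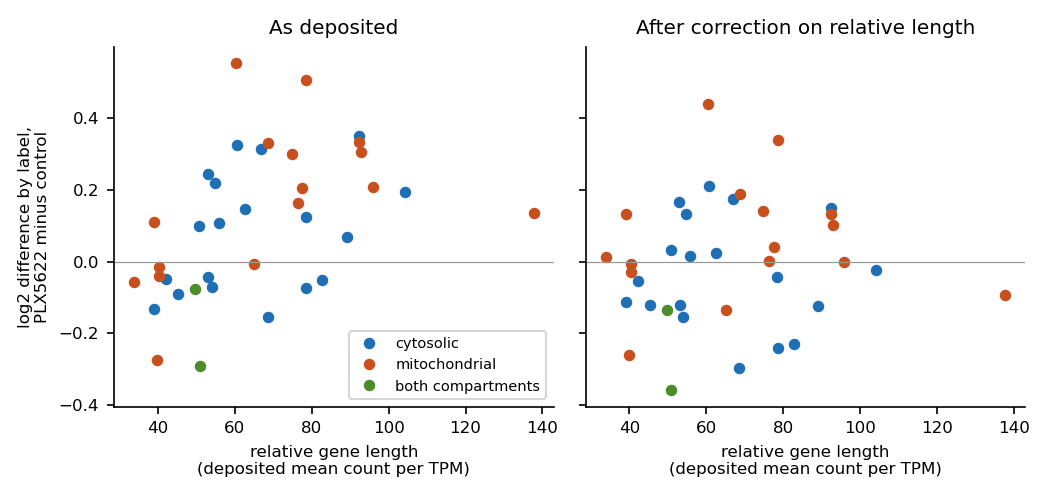
Difference by label (log2, PLX5622 minus control) of each synthetase gene against its relative length, the deposited mean normalized count per TPM, before (left) and after (right) a loess correction on that length. Before correction 22 of 37 points lie above 0, after it 18.

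Companions of the synthetases, in 6 lists, gave 0 calls in the same limma fit in either direction. The 3 scaffold genes of the multi-synthetase complex had negative differences, with a median of −0.31, which was −0.40 with size-factor scaling and −0.15 after the relative-length correction, where 1 of the 3 was positive. Aimp1 was at 146, 95.5 and 113 TPM under control diet and at 88.4, 85.8 and 88.8 TPM under PLX5622, a difference of −0.41 ± 0.16 (limma adjusted p = 0.205). Aimp2 was at 81.2, 64.8 and 75.4 TPM and at 59.6, 58.6 and 58.6 TPM. In both genes control 1 was highest and every PLX5622 library lay below every control library, beside 9.39% of tested genes. The groups overlapped for Eef1e1, the other scaffold gene. The complex genes themselves had 4 positive and 4 negative differences, with a median of 0.052; the difference between enzymes and scaffolds was not tested. Without control 2, 2 of the 3 scaffold genes were called, in the fit where 19.9% of tested genes were called higher and 8.82% lower. In the authors' deposited table Aimp1 stood at −0.28 (95% interval −0.86 to 0.29) and Aimp2 at −0.15.

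A list of proofreading genes that also holds Ptrh2, a peptidyl-tRNA hydrolase, had a median of −0.17, with 1 of 5 positive. With size-factor scaling its median was −0.26. Aarsd1, which removes amino acids wrongly placed on alanine tRNA, differed by −0.17 ± 0.11 and Dtd1, which removes D-amino acids from tRNA, by −0.32 ± 0.12. Mitochondria have no glutaminyl-tRNA synthetase of their own and make that charged tRNA by amidating glutamate, and the 4 genes of this step and of methionine formylation had a median of 0.10, beside 0.019 with size-factor scaling and −0.0030 after a loess correction on GENCODE exon length. The highest of them were the subunits Gatc (0.16 ± 0.15) and Gatb (0.14 ± 0.12). Genes that place selenocysteine had a median of −0.042 over 4 genes, or −0.12 with size-factor scaling, with Pstk, the seryl-tRNA kinase, at −0.13 ± 0.12 and Eefsec, the elongation factor for that residue, at −0.13 ± 0.13. Among 6 genes of tRNA export, end processing and delivery the median was 0.062, and −0.019 with size-factor scaling. Eef1a1, which carries charged tRNA to the ribosome, stood at 2818 ± 429 and 2619 ± 231 TPM, and Tufm, its mitochondrial counterpart, at 139 ± 6.91 and 153 ± 10.1 TPM (SD, n = 3).

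Atf4 and 13 genes it is known to induce did not share a direction, with 7 positive and 6 negative differences among 13 tested. Over all tested genes 61.1% were positive. The median of the list was 0.041, which was −0.048 with size-factor scaling. Without control 2, 4 of the 13 were called, beside the same 19.9% and 8.82% of all tested genes. Atf4 was at 198, 139 and 192 TPM under control diet and at 136, 193 and 159 TPM under PLX5622, with overlapping groups. Psat1, of serine synthesis, differed by 0.59 ± 0.20 (limma adjusted p = 0.205), and Phgdh, the first enzyme of that pathway, by −0.047 ± 0.13. Slc7a11 and Sesn2, named after their values were seen, differed by 0.59 ± 0.17 and 0.66 ± 0.23 (limma adjusted p = 0.205 for each). Asns makes the asparagine that Nars and Nars2 charge; it and Atf4 were singled out after their values were seen. It was at 32.0, 30.1 and 29.3 TPM under control diet and at 22.4, 14.2 and 16.1 TPM under PLX5622, a difference of −0.78 ± 0.17 (limma adjusted p = 0.205), and at −0.32 (95% interval −1.02 to 0.38) in the authors' deposited table.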

How the data were processed

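The symbol rule for the synthetase genes uses no expression value, but the gene family, the companion lists and the tests were chosen with earlier results of these data known. The TPM values were made by the authors. Tools named, per the submitters' processing notes, were featureCounts of Subread 2.0.1, STAR 2.7.10a, R 4.1.0 and DESeq2 1.32.0, with build mm39, and per the labels' protocols libraries were poly(A)-selected and non-stranded. For annotation, gene lengths and filters the entry is: not given in the sources used here. The second deposited table holds a signal named baseMean, the average normalized count of a gene. Fold changes and their standard errors were deposited on the log2 scale, the test statistic is a deposited score, and raw and adjusted p-values were deposited by the authors. That table names no numerator, and its values are given as deposited, with no diet assigned to their sign.

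TPM keeps no depth, so the depth of a library cannot be given, nor any counting error. Here limma 3.58.1 in R 4.3.3 was fitted, with a trend of variance on level, to log2(TPM + 1) of the 13084 of 26264 genes that averaged 1 TPM or more, two-sided with Benjamini-Hochberg adjustment at 0.05; 6200 genes were at 0 in all libraries. Differences are PLX5622 minus control on the log2(TPM + 1) scale, which understates changes of low genes. Intervals for the authors' values are the fold change ± 1.96 standard errors. The limma p-values set each difference against the spread within the labelled groups, with variances drawn toward a trend over all genes. Lists are described by counts and medians, with no test. Values are given per library for the 6 highest and 4 lowest genes, the 4 smallest p in each direction, Farsa, Farsb, Eprs, Tarsl2 and the pairs nearest and farthest in level; other choices are named. Exon overlaps come from GENCODE M21 gene models, which are of an older build than mm39, so no coordinates were joined. Alternatives were another pseudocount, 2 filters, size-factor scaling, a replicate block, length corrections and left-out libraries. No column of per-sample values was left unused. The values of 1 gene are not reported here, though it is in the counts and medians.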

Additional observations from a re-analysis of the deposited data

How the results depend on the processing

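No synthetase gene was called under any alternative except without control 2. Over the leave-one-out fits the count of called genes ran from 0 to 3754 over all genes and from 0 to 7 for synthetases, the cytosolic median from 0.0015 to 0.15, and the mitochondrial median from 0.088 to 0.28. Without PLX5622 1, 36 genes were called, and 14 without the libraries labelled control 3 and PLX5622 3, none of them a synthetase. Size-factor scaling moved the cytosolic median to 0.010, the mitochondrial median to 0.10 and that of all genes from 0.089 to 0.012, with Vars at −0.016. A loess correction on GENCODE exon length gave medians of −0.061 and 0.017 for cytosolic and mitochondrial genes and turned Aars (−0.096), Cars2 (−0.083), Ears2 (−0.011), Eprs (−0.061), Tars (−0.060), Vars (−0.091) and Yars (−0.071). The correction on relative length gave medians of −0.043 and 0.027 and turned Aars (−0.043), Ears2 (−0.092), Eprs (−0.024), Tars2 (−7.6e-05), Vars (−0.12) and Yars2 (0.013). The cause was not tested beyond the correction itself. Without the libraries labelled control 3 and PLX5622 3, Pars2 was at 0.091. Leaving out single libraries turned Fars2 (−0.073 to 0.0043), Lars (−0.16 to 0.11), Pars2 (−0.19 to 0.13), Sars2 (−0.082 to 0.061) and Vars (−0.032 to 0.20). Another pseudocount and the filters turned no direction. With replicate numbers as a block, 0 genes and 0 synthetases were called and the medians stayed at 0.098 and 0.18. Deviations from the labelled group means correlated at −0.033, −0.27 and −0.15 for same-numbered libraries. For libraries of different number they correlated at −0.22 to 0.34. With 3 libraries in each group and the labels in doubt, these values cannot decide whether the numbers pair the samples.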
